A study of Mus musculus with 15 samples.

Results

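The genes that copy DNA and make its building blocks were followed in CD4+ T cells given a low-level T-cell receptor (TCR) stimulus, and in thymocytes (immature T cells of the thymus), of mice with and without N-ras. The group holds 40 genes, taken by name, in 8 roles: origin licensing, the MCM helicase, the sliding clamp and its loader, polymerases and primase, single-strand binding and Okazaki fragment joining, nucleotide synthesis, cyclin E, and chromatin behind the fork. Of these, 39 were measured, by 85 of the 45101 probe sets of the CD4+ T-cell arrays, which name 18194 genes, and by 72 of the 22690 probe sets of the thymocyte arrays, which name 12394 genes. Chaf1a, a subunit of the histone chaperone CAF-1, was not analysed here. A probe set is a group of short probes for 1 transcript, and 29 of the genes had several in the CD4+ T cells, up to 5 each. Probe sets of 1 gene share its transcript and are not independent measurements. The IDs of 5 of the 85 end in _s_at and of 12 in _x_at, which marks probes that can bind other transcripts too.

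CD4+ T cells were sorted from the spleens of homozygous N-ras KO mice and WT littermates of strain 129/SJ, aged 6 to 20 weeks. They were kept overnight unstimulated or with anti-CD3 and anti-CD28 antibodies at 1 µg/ml, which gave 4 groups of 3 arrays. CD4+ T cells of the N-ras KO are called KO cells below. Thymocytes were taken without treatment from 3 mice, a WT, an H-ras KO and an N-ras KO, also 129/SJ, with 1 array each. Their age is 6 weeks in the methods and 6 to 20 weeks in the labels. The KO alleles were carried by every cell of the animal, so the loss was not restricted to T cells, with the sex of the mice not given in the sources used here. The methods say that sorted cells were divided to be stimulated or not, yet also that every repetition of a condition had a mouse of its own, so tests measure the spread between these arrays, whose source is only partly stated.

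The deposited values are log2 expression that the authors centred, and in them the median of the 3 unstimulated arrays of each genotype is 0 (within 1e-06) on all 45101 probe sets, as is the median of the thymocyte arrays on all 22690. They therefore hold differences and no brightness. Unstimulated WT and KO cells cannot be compared, a stimulated value is a change from the baseline of its own genotype, and it cannot be said from the values whether a gene was expressed. For the same reason the T-cell identity of the samples could not be checked by level. The 8 probe sets of 7 T-cell markers, Cd4 and Cd3e among them, had a median response of -0.02 log2 in WT and 0.02 log2 in KO cells, with 0 past the thresholds used below. Nras itself went against the labels on 2 replicate numbers. On probe set 1454060_a_at it stood at 2.04 and 2.09 log2 on the unstimulated and stimulated arrays labelled N-ras KO 3, and at -2.68 and -3.04 log2 on those labelled WT 1, while the other 8 lay between -0.10 and 0.51 log2. The shifts were smaller on 1422688_a_at, at 1.21 and 0.80 log2 on N-ras KO 3 and -1.23 and -1.23 log2 on WT 1. On 1422687_at N-ras KO 3 stood at 1.70 and 1.21 log2 and unstimulated WT 1 at -1.61. Stimulated WT 1, at -0.14 log2, did not stand apart there, with stimulated WT 3 at -0.19. In thymocytes its 3 probe sets were 1.81 to 2.46 log2 higher in WT than in the N-ras KO array. Some cRNA was amplified where its yield was low, with the arrays concerned not given in the sources used here. In these bulk samples, fewer cells of a type and less RNA per cell cannot be told apart.

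Before a cell copies its DNA, the origin recognition complex, Cdc6 and Cdt1 load the MCM helicase onto origins, and Cdc45 later helps to switch the helicase on. Primase and polymerase alpha start each strand, the clamp loader RFC places the ring Pcna, and polymerases delta and epsilon extend. Resting T cells hold these genes low, and after a TCR signal E2F factors, released from Rb proteins by cyclin-dependent kinases, are known to switch many of them on as the cell moves from rest into S phase.

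Sequences bearing on that background were read from the 300 bases around each start site (250 before, 50 after) in the RefSeq annotation of GRCm38.p6, which matched 35 of the genes. The words TTTCCCGC, TTTCGCGC, TTTGCCGC and TTTGGCGC, forms of the E2F site, were searched on both strands. They overlap each other where 2 words on opposite strands share bases. At least 1 stood in 13 of the 35 genes (37.1%), against 704 of 27025 genes with such a window (2.6%) and 3.29% of protein-coding genes. The word CCAAT, which marks the NF-Y site, stood in 23 of the 35 (65.7%), against 41.1% of all and 42.3% of protein-coding genes. Of the 4 windows below, a window of Uhrf1 is shown for the largest response in WT cells and that of Mcm6 for the most words, 3. Those of Mcm5 and Rfc3 are shown as examples of genes whose probe sets went opposite ways on different WT pairs, as most member probe sets did. Capitals mark the E2F words on either strand, and where 2 overlap their capitals run together.
Uhrf1, chr17:56304063-56304362 (plus strand): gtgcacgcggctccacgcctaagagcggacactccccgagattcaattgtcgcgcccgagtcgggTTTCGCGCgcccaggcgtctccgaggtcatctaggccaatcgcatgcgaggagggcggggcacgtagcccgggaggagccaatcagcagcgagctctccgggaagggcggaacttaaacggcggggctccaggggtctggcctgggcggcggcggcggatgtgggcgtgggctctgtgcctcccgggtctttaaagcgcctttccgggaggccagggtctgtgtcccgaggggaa
Mcm5, chr8:75109259-75109558 (plus strand): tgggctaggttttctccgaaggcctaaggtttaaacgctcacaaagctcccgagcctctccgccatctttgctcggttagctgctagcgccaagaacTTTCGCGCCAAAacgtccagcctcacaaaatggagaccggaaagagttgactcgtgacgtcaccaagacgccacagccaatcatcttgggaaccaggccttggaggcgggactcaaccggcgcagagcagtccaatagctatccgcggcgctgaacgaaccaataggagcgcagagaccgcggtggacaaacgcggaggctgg
Mcm6, chr1:128359656-128359955 (minus strand): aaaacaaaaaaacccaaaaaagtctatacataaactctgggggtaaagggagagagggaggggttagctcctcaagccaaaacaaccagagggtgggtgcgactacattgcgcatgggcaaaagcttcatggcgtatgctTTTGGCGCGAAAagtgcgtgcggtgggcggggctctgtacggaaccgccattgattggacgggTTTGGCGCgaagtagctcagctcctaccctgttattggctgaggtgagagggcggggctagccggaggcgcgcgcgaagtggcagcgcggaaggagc
Rfc3, chr5:151651159-151651458 (minus strand): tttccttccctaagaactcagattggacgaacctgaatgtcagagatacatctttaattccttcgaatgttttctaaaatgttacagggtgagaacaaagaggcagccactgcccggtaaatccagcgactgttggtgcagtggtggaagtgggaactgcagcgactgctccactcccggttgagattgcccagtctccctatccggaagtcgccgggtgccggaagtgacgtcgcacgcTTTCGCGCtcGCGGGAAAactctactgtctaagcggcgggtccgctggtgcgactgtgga
The words of Uhrf1, Mcm5 and Mcm6 lie before the start site, and those of Rfc3 lie at it. Uhrf1 has a further window at another start site, which is not shown and holds none of these words. The windows of Mcm2, Rrm2 and Tk1, which are described below, hold none of these words, which says nothing of the factors that act there.

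The first comparison asks what the TCR stimulus did to these genes in WT cells, [WT + stimulation] vs. [WT]. Uhrf1, Mcm2 and Rrm2 were higher on 1 probe set each. They were the 3 of 85 member probe sets (3.53%) that passed the study's thresholds of an unadjusted p under 0.05 and at least 1.5-fold in limma, and 1.04% of all 45101 probe sets did (0.53% higher, 0.51% lower). Intervals below are 95% intervals of that fit for 1 probe set, not adjusted for the number tested. The other 82 did not pass, and 0 of all probe sets passed a Benjamini-Hochberg adjusted p of 0.05, where the lowest adjusted p of a member was 1.00. Across the members the median response was 0.08 log2, against 0.00 log2 over all probe sets. The stimulus itself could be seen elsewhere on the arrays. Of 25 probe sets of T cell activation genes, 10 passed in WT and 6 in KO cells, all higher, with medians of 1.13 and 0.87 log2.

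Uhrf1, which recognizes hemimethylated DNA behind the fork and brings Dnmt1 to it, gave the largest WT response of the members. On probe set 1415810_at its unstimulated WT arrays stood at -0.35, 1.66 and 0.00 log2 and its stimulated WT arrays at 2.32, 2.23 and 2.06. The groups did not overlap, and unstimulated array 2 lay far closer to the stimulated ones than the others did. The response was 1.76 log2, or 3.39-fold (standard error 0.53, 95% interval 0.58 to 2.95 from limma, adjusted p = 1.00). It was 1.31 log2 without the arrays numbered 1 and then no longer passed. In KO cells it stood at -0.17, 0.00 and 0.63 log2 unstimulated and 0.23, 0.78 and 1.87 stimulated. It was higher in 3 of 3 pairs there too, by 0.80 log2 (95% interval -0.38 to 1.99), with groups that overlapped. The responses of both genotypes differed by 0.96 log2, with a 95% interval of -0.72 to 2.64, which leaves room for no difference as well as for a large one. The other probe set of Uhrf1, 1415811_at, gave 0.70 log2 in WT (-0.40 to 1.79) and 0.36 log2 in KO cells (-0.73 to 1.46).

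Mcm2, a subunit of the helicase ring, was measured by a pair of probe sets, of which 1 passed. On 1434079_s_at the WT arrays stood at -0.92, 0.01 and 0.00 log2 unstimulated and 0.37, 0.33 and 0.61 stimulated. The groups did not overlap, and the response was 0.74 log2, or 1.67-fold (standard error 0.26, 95% interval 0.16 to 1.31). It did not pass without the arrays numbered 1 (0.46 log2), without unstimulated WT 1 (0.43 log2) or without stimulated WT 3 (0.65 log2). The KO arrays, at 0.13, 0.00 and -0.19 log2 unstimulated and 0.44, 0.30 and 0.58 stimulated, did not overlap either. That response was 0.46 log2 and missed the thresholds (-0.11 to 1.04). The other probe set, 1448777_at, gave 0.19 log2 in WT (-1.55 to 1.93) and 0.27 log2 in KO cells (-1.47 to 2.01). On it, N-ras KO array 3 stood at -1.72 log2 unstimulated and -1.59 stimulated, and WT array 3 at 0.91 and 1.36, a spread between arrays far wider than either response.

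Rrm2, the small subunit of ribonucleotide reductase, which makes deoxyribonucleotides, passed on 1 of its 3 probe sets. On 1434437_x_at the WT arrays stood at 0.00, 0.09 and -0.64 log2 unstimulated and 0.61, 0.31 and 0.53 stimulated. The groups did not overlap, with a response of 0.67 log2, or 1.59-fold (standard error 0.23, 95% interval 0.15 to 1.18). It did not pass without the arrays numbered 3 (0.41 log2) or 1 (0.69 log2), without unstimulated WT 3 (0.44 log2) or without stimulated WT 1 (0.60 log2). The KO arrays stood at 0.12, -0.30 and 0.00 log2 unstimulated and -0.15, -0.02 and 0.16 stimulated, a response of 0.06 log2 (-0.46 to 0.57). The difference between the responses was 0.61 log2 (95% interval -0.12 to 1.34), within which lie both 0 and the size of the WT response. The other probe sets gave 0.33 and 0.58 log2 in WT and -0.16 and 0.07 log2 in KO cells, and passed in neither.

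**Figure D1:**
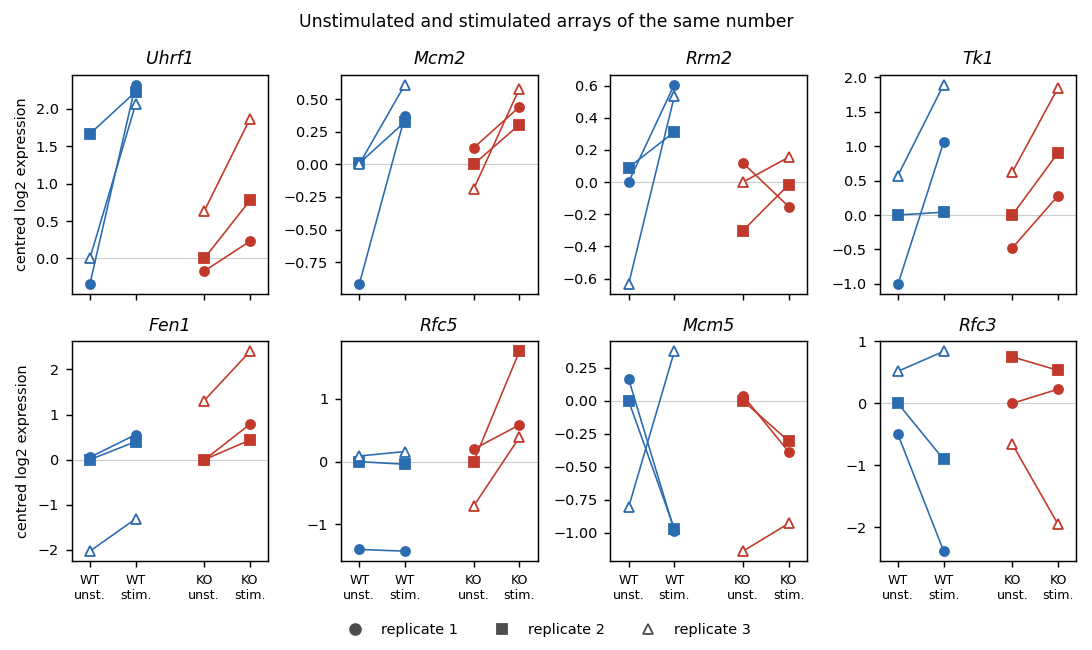
Centred log2 expression (y axis) of 8 member probe sets on the unstimulated and stimulated arrays of WT (blue) and N-ras KO (red) CD4+ T cells. Lines join arrays of the same genotype and replicate number. Uhrf1, Mcm2 and Rrm2 had WT groups that did not overlap, while Tk1 and Fen1 had all 6 lines sloping up from starting values that differed between replicate numbers, and Mcm5 and Rfc3 had WT lines in both directions.

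In KO cells, [N-ras KO + stimulation] vs. [N-ras KO], 1 of 85 member probe sets passed (1.18%), against 2.34% of all probe sets, and it was higher, as 1.16% of all were. It was 1427811_at of Tyms, thymidylate synthase, which makes dTMP from dUMP. Its KO arrays stood at 0.00, -0.27 and 0.09 log2 unstimulated and 0.30, 1.85 and 0.27 stimulated. Stimulated array 2 stood alone, and the response of 0.87 log2 (standard error 0.37, 95% interval 0.05 to 1.68) was 0.24 log2 without the arrays numbered 2, where it no longer passed. It also missed the thresholds with the block described below, and without any 1 of several other arrays of either genotype. The 3 other Tyms probe sets gave -0.23, 0.02 and -0.31 log2, so the gene as a whole moved in no clear direction. The median over all 85 was 0.06 log2, against 0.01 log2 over all probe sets, and it was -0.06 log2 with 1 probe set a gene.

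The test of the genotype difference itself, the response in WT minus that in KO cells, passed on 0 of 85 member probe sets, and 0 had an unadjusted p under 0.05, against 1.29% and 1.3% of all probe sets. Over the members this difference ran from -1.40 log2 (Rfc3, 1432538_a_at) to 1.57 log2 (Rrm1, 1448127_at). In this fit, without a replicate block, their 95% intervals were -3.25 to 0.46 and -0.83 to 3.98. Differences of severalfold in either gene could therefore not be told from 0 by this fit with 3 arrays a group. With the replicate block described below, the Rrm1 probe set passed the unadjusted thresholds and the Rfc3 probe set did not.

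Directions were also counted over the 3 pairs of same-numbered arrays of each genotype, with no test. In WT cells 19 of 85 (22.4%) were higher in 3 of 3 pairs, against 14.5% of all probe sets, and 4 (4.71%) were lower, against 13.5%. In KO cells 21 (24.7%) were higher, against 13.8%, and 4 (4.71%) lower, against 12.9%. Tk1, Uhrf1 (1415810_at), both probe sets of Fen1, and Mcm2 (1434079_s_at) were among those higher in 3 of 3 pairs of each genotype. Groups that did not overlap at all were fewer. They were 4 in WT (Mcm2, Rrm2, Dut and Uhrf1, all higher, 4.71% against 2.27%), and 0 were lower, against 2.12% of all. In KO cells they were 4 higher (Mcm2, Rfc5, Pola1 and Tyms, 4.71% against 2.72%) and 1 lower (Orc2 on 1418226_at, 1.18% against 2.22%).

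On these arrays the spread between replicate numbers mostly exceeded the response, on members and other probe sets alike. The range of the 3 pair means was larger than the response on 78 of 85 member probe sets in each genotype (91.8%), against 90.9% of all probe sets in WT and 89.2% in KO cells. Its median over the members was 0.85 log2 in WT and 0.99 log2 in KO cells, against responses with a median size of 0.23 and 0.22 log2. Over all probe sets that range had a median of 0.62 and 0.67 log2. A range over 3 pairs would often exceed the size of a mean over them even if arrays of 1 number shared no shift. These shares alone therefore do not show such a shift. Stimulated and unstimulated arrays of 1 number and genotype deviated together, with correlations across the 85 member probe sets of 0.527, 0.375 and 0.800 in WT and 0.590, 0.621 and 0.794 in KO cells. Those of 1 number in different genotypes deviated in opposite directions, with -0.683 for the unstimulated arrays numbered 3 (-0.621 over all probe sets).

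Prim1, the catalytic subunit of primase, is an example. On 1418369_at the arrays WT 3 stood at 2.98 log2 unstimulated and 3.38 stimulated, and the arrays N-ras KO 3 at -2.25 and -1.89. The other 8 arrays lay between -0.48 and 0.45 log2. Rfc4, a subunit of the clamp loader, stood at -3.12 and -2.79 log2 on the arrays N-ras KO 3 (1424321_at) and at 1.06 and 1.68 log2 on WT 3. Its responses were -0.09 and -0.11 log2. Dnmt1, which copies DNA methylation onto the new strand, ran the other way on 1422946_a_at, at -1.94 and -1.60 log2 on WT 3 and at 1.39 and 1.63 log2 on N-ras KO 3. On its other probe sets, 1435122_x_at and 1447877_x_at, both WT 3 arrays were above and both N-ras KO 3 arrays below 0, so probe sets of 1 gene disagreed about these arrays.

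**Figure D2:**
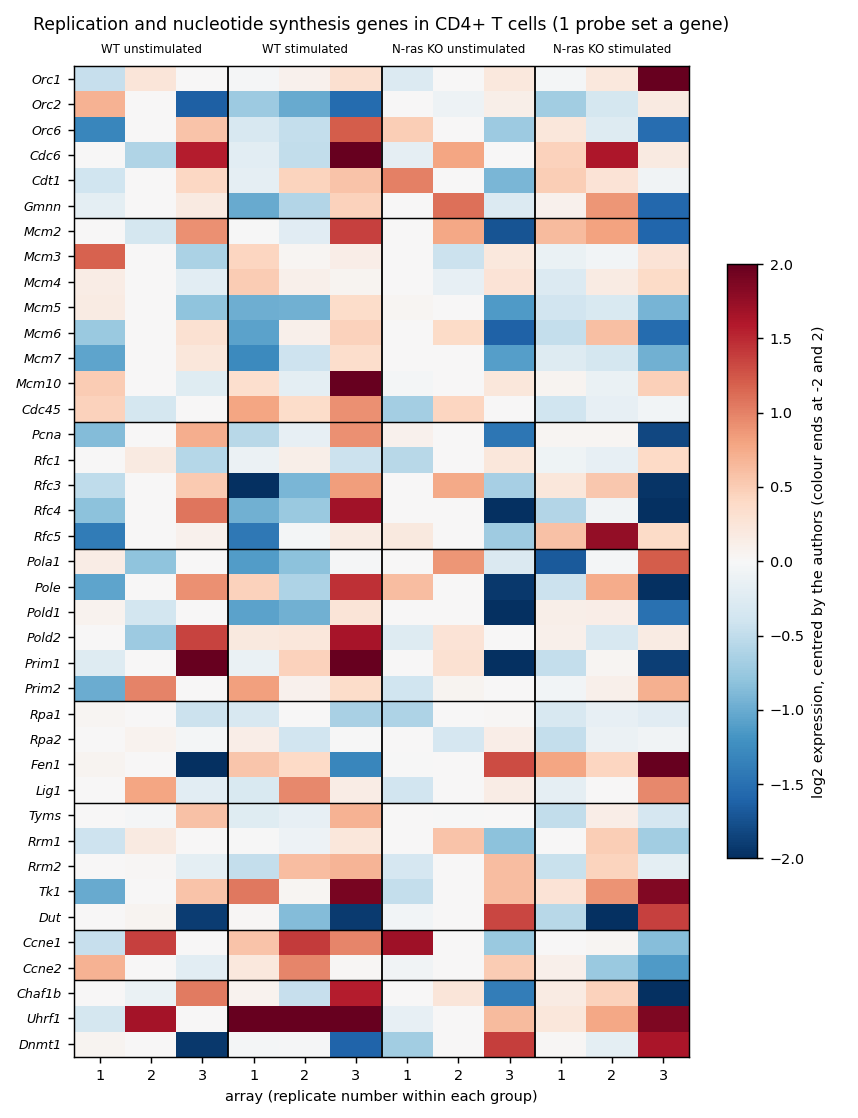
Centred log2 expression (colour, ending at -2 and 2) of the 39 measured genes in rows, with 1 probe set a gene (plain IDs first, then by ID), on the 12 CD4+ T-cell arrays in columns. Lines separate roles and groups. The columns numbered 3 carry the strongest colours in each group, with many genes red in WT 3 and blue in N-ras KO 3, whether stimulated or not.

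With the replicate number of each genotype as a block, which removes these shared shifts, more members passed. In WT cells they were 7 of 85 (8.24%), against 2.8% of all probe sets. Uhrf1, Mcm2 and Rrm2 were joined by Cdc45, Tk1 and Rrm1 on the higher side (6 of 85, 7.06%, against 1.43%) and by Orc2 (1418225_at) on the lower side (1.18%, against 1.37%). In KO cells 5 passed (5.88%), against 4.91%: Rfc5, Fen1 and Tk1 higher (3.53%, against 2.25%), Rrm1 (1448127_at) and Orc2 (1418226_at) lower (2.35%, against 2.65%). The difference of the responses passed on 3 (3.53%), against 4.12%, with Cdc45 and Rrm1 higher in WT (2.35%, against 2.28%) and Rfc5 lower (1.18%, against 1.84%). Under this block too, 0 probe sets had an adjusted p under 0.05. The genes that follow were chosen after their values were seen, or as the member of their role with the smallest p.

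Tk1, thymidine kinase, which salvages thymidine in S phase, was higher in 6 of 6 pairs. The WT arrays went from -1.01, 0.00 and 0.57 log2 to 1.06, 0.04 and 1.89, and the KO arrays from -0.48, 0.00 and 0.62 to 0.28, 0.90 and 1.85. Pair WT 2 hardly moved, and groups overlapped in both genotypes. The responses were 1.14 log2 in WT (95% interval -0.14 to 2.43) and 0.96 log2 in KO cells (-0.32 to 2.25), and both passed with the block. They differed by 0.18 log2, with a 95% interval of -1.64 to 2.00, too wide to call them alike.

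Rrm1, the large subunit of ribonucleotide reductase, gave opposite directions on 1448127_at. The WT arrays went from -0.75, 0.00 and 1.96 log2 to 0.07, 1.02 and 2.55, higher in 3 of 3 pairs. The KO arrays went from 0.73, 0.00 and -0.32 log2 to -0.51, 0.06 and -1.44, lower in 2 of 3. The difference of the responses was 1.57 log2 (-0.83 to 3.98), which passed with the block and not without. Its other probe sets, 1415878_at and 1440073_at, gave differences of 0.10 and -0.03 log2.

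Of the remaining nucleotide genes, Dut, the dUTPase that keeps uracil out of DNA, had WT groups that did not overlap on 1419270_a_at. They went from 0.06, 0.00 and 0.00 log2 to 0.62, 0.42 and 0.77, a response of 0.58 log2 that missed the thresholds (-0.14 to 1.30). Its other probe set, 1419269_at, gave -0.30 log2 in WT and -0.91 log2 in KO cells, with stimulated N-ras KO 2 at -2.26.

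Among the helicase genes, 24 probe sets of 8 genes, the median response was 0.11 log2 in WT and 0.10 log2 in KO cells. Cdc45 (1416575_at) went in WT from 0.47, -0.35 and 0.00 log2 to 0.79, 0.36 and 0.92, and in KO cells from -0.68, 0.43 and 0.00 to -0.40, -0.17 and -0.06. The WT response was 0.65 log2 (-0.05 to 1.35), which passed with the block, and that in KO cells was -0.12 log2 (-0.82 to 0.57). Its second probe set, 1457838_at, showed no such split, with 0.19 log2 in WT and 0.35 log2 in KO cells. Mcm6 gave -0.02 and -0.06 log2 (1416251_at), and Mcm7 -0.17 and -0.16 log2 (1416030_a_at), although single arrays of each ran below -1. Mcm4, with no array beyond 0.67 log2, gave 0.25 and 0.29 log2 in WT and 0.06 and 0.20 log2 in KO cells. Mcm10, which helps to activate the helicase, was at 2.22 log2 on stimulated WT 3 and between -0.24 and 0.51 log2 on the other 11 arrays (1433407_at).

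The licensing genes, 11 probe sets of 6 genes, had medians of -0.10 and -0.18 log2, and the smallest p among them belonged to Orc1. On 1422663_at stimulated N-ras KO 3 stood at 2.82 log2, and the other 11 arrays lay between -0.46 and 0.32. The response of 1.02 log2 in KO cells (-0.34 to 2.37) thus rested on 1 array. Cdc6, which loads the helicase, was higher in 3 of 3 KO pairs, by 0.63, 0.82 and 0.18 log2, with an interval of the response from -1.09 to 2.17. Gmnn, the inhibitor of Cdt1, gave -0.37 log2 in WT and -0.48 log2 in KO cells. On 1418225_at Orc2 went in WT from 0.69, 0.00 and -1.63 log2 to -0.73, -1.01 and -1.54, lower in 2 of 3 pairs. In KO cells Orc2 on 1418226_at and 1418227_at and Orc6, all subunits of the origin recognition complex, were lower in 3 of 3 pairs, with responses of -0.73, -0.66 and -0.44 log2 and intervals that all reached above 0 (to 0.55, 1.42 and 0.98). So was the other probe set of Orc1, 1443172_at, by 0.26, 0.13 and 0.16 log2, while Orc2 on 1418225_at was lower in 2 KO pairs and 0.06 log2 higher in pair 3. Orc1 on 1422663_at was higher in 3 of 3 KO pairs, by 0.23, 0.22 and 2.61 log2. Of the member probe sets 4.71% were lower in 3 of 3 KO pairs, fewer than the 12.9% of all probe sets. Cdt1 gave 0.44, 0.27 and -0.21 log2 on its 3 probe sets in WT and 0.25, 0.21 and 0.17 log2 in KO cells.

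For the clamp and its loader, 9 probe sets of 5 genes, the medians were -0.09 log2 in WT and 0.16 log2 in KO cells. Rfc5, a loader subunit, hardly moved in WT cells, from -1.40, 0.00 and 0.09 log2 to -1.43, -0.04 and 0.16. In KO cells it went from 0.20, 0.00 and -0.71 log2 to 0.59, 1.76 and 0.39, with groups that did not overlap. That response was 1.08 log2 (-0.15 to 2.31) and passed with the block. The responses differed by -1.08 log2 (-2.82 to 0.66), which passed with the block too. Rfc1, the large subunit, ran from -0.11 to 0.55 log2 in WT and from -0.29 to 0.22 log2 in KO cells over 3 probe sets. Pcna itself gave 0.12 and -0.13 log2, within a spread that ran from 0.92 on stimulated WT 3 to -1.83 log2 on stimulated N-ras KO 3.

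The polymerases and primase, 11 probe sets of 6 genes, passed on none in either response. The smallest p belonged to Pola1, the catalytic subunit of polymerase alpha, on 1459319_at. Its KO arrays went from 0.00, 0.10 and -0.15 log2 to 0.12, 0.27 and 0.82 (0.42 log2, -0.19 to 1.02). Its other probe set, 1419397_at, gave -0.36 log2 in the same cells, so Pola1 had no settled direction. Pole, the catalytic subunit of polymerase epsilon, gave 0.48 log2 in WT (-1.63 to 2.59) and -0.35 log2 in KO cells (-2.46 to 1.76). Pold2, a smaller subunit of polymerase delta, gave 0.48 and -0.03 log2. Prim2, the other primase subunit, ran from -0.03 to 0.43 log2 in WT and from -0.07 to 0.39 log2 in KO cells over 3 probe sets.

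Fen1, which trims the flaps of Okazaki fragments, was higher in 6 of 6 pairs on both probe sets. On 1421731_a_at the WT arrays went from 0.05, 0.00 and -2.03 log2 to 0.55, 0.40 and -1.31, and the KO arrays from -0.01, 0.00 and 1.31 to 0.79, 0.44 and 2.40. The pairs differed by 0.40 to 1.09 log2, while the arrays numbered 3 lay far from the others of their own genotype. The responses were 0.54 log2 in WT (-1.12 to 2.20) and 0.77 log2 in KO cells (-0.89 to 2.43). With the block the KO response passed, while the WT response met the p but not 1.5-fold. Lig1, which seals the fragments, gave 0.08 and 0.35 log2, and the single-strand binding subunits Rpa1 and Rpa2 stayed within -0.21 and 0.16 log2 on 4 probe sets.

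Cyclin E binds Cdk2 at the entry to S phase. Ccne2 had the smallest p of its role. Its WT arrays went from 0.69, 0.00 and -0.20 log2 to 0.21, 0.97 and 0.02, and its KO arrays from -0.06, 0.00 and 0.51 to 0.10, -0.74 and -1.14. The responses were 0.24 log2 (-0.61 to 1.09) and -0.74 log2 (-1.59 to 0.11), and their difference was 0.98 log2 (-0.23 to 2.18). Ccne1 gave 0.68 and -0.58 log2, the latter with unstimulated N-ras KO 1 at 1.70 (1416492_at), and 0.28 and -0.17 log2 on 1441910_x_at. Chaf1b, the CAF-1 subunit that was measured, gave 0.08 and -0.12 log2 on 1423877_at and 0.08 and 0.07 log2 on 1431275_at.

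**Figure D3:**
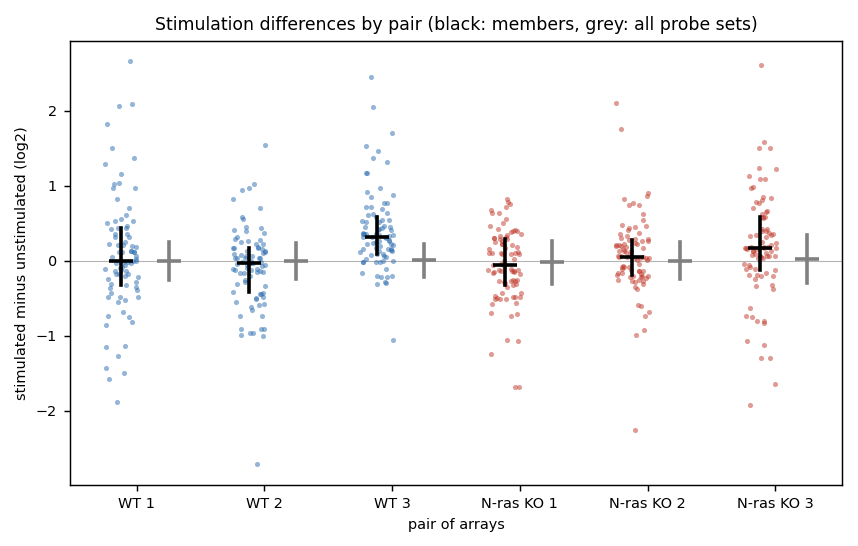
Stimulated minus unstimulated log2 expression (y axis) of the 85 member probe sets (points) for each pair of same-numbered arrays (x axis). Black marks give the median and quartiles of the members, grey marks those of all 45101 probe sets. WT pair 3 stands highest, with a member median of 0.32 log2 where all probe sets have 0.02 log2.

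The pairs did not contribute alike. The member medians were 0.00, -0.03 and 0.32 log2 for WT pairs 1, 2 and 3, and -0.06, 0.05 and 0.17 log2 for the KO pairs, while those of all probe sets lay between -0.02 and 0.03 log2. In WT pair 3, 70 of 85 member probe sets were higher after stimulation, against 42 and 39 in pairs 1 and 2. In KO pairs 1 to 3 they were 41, 50 and 58. Helicase genes had a median of 0.45 log2 in WT pair 3, where Mcm10 (2.46 log2), Mcm3 (1.38 log2, 1426653_at) and Mcm5 (1.18 log2, 1415945_at) were high, and -0.16 and 0.07 log2 in the other pairs.

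Leaving out the 4 arrays numbered 3 brought the member medians to 0.01 log2 in both genotypes, against 0.00 and -0.01 log2 over all probe sets. In WT cells 7 member probe sets then passed (8.24%), against 2.95% of all probe sets. Of them 2, Uhrf1 and Mcm2, were higher (2.35%, against 1.41%), and 5 were lower (5.88%, against 1.54%). These were Mcm5 (-1.06 log2), Orc2 (-1.22 log2, 1418225_at), Pold1, the catalytic subunit of polymerase delta (-0.86 log2), and both probe sets of Rfc3 (-1.40 and -1.24 log2). With all numbers none of these 5 had passed without the block, and Orc2 on this probe set had passed with it. Mcm5 (1415945_at) went from 0.17 and 0.00 log2 to -0.98 and -0.97 on the arrays WT 1 and 2, and from -0.81 to 0.37 log2 on WT 3. Rfc3 (1423700_at) went from -0.50 and 0.00 log2 to -2.39 and -0.91 on WT 1 and 2, and from 0.52 to 0.84 on WT 3. Both were therefore lower in 2 WT pairs and higher in pair 3 on these probe sets. The other probe sets of Mcm5 did not pass without number 3 and followed another order, with WT pairs of -1.58, 0.13 and 1.46 log2 on 1436808_x_at and 0.35, -0.43 and 0.41 log2 on 1459658_at.

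In KO cells the same step left 2 that passed (2.35%, against 3.85%), Fen1 (0.61 log2, 1421731_a_at) and Tyms (1.21 log2, 1427811_at). Both were higher, as 1.94% of all probe sets were, and 0 were lower, against 1.91%. Signs turned on 14 member probe sets in WT (16.5%) and on 17 in KO cells (20%), against 16.6% and 21.3% of all. With the block and without number 3, 8 passed in WT (9.41%, against 4.29% of all probe sets), of which 2 were higher, and 4 in KO cells (4.71%, against 5.29%). The KO 3 and WT 1 arrays were those whose Nras went against the label, stimulated WT 1 not on every Nras probe set. Without them there was 1 in WT (Uhrf1, where 1.65% of all probe sets passed) and 2 in KO cells (3.11% of all).

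**Figure D4:**
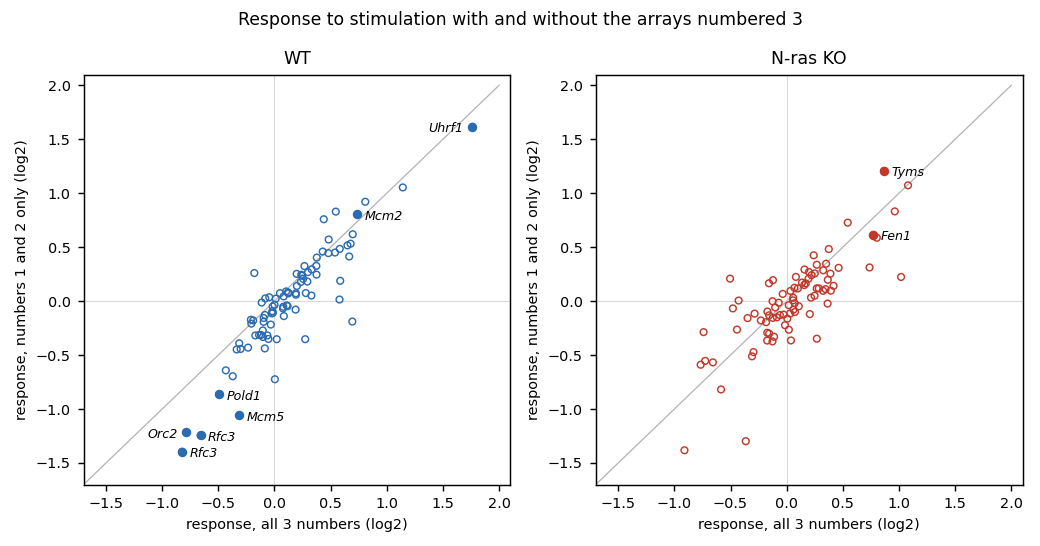
Response to stimulation (log2) of the 85 member probe sets with all arrays (x axis) and without the arrays numbered 3 (y axis), in WT (left) and KO cells (right). Filled points passed both thresholds without number 3, and the grey line marks equal values. In WT 5 of the 7 filled points lie below 0, at -0.86 to -1.40 log2.

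The comparison of stimulated cells, [WT + stimulation] vs. [N-ras KO + stimulation], passed on 9 of 85 member probe sets (10.6%), against 6.9% of all. It set changes from separate baselines against each other. The 6 higher in WT (7.06%, against 3.33%) were Uhrf1 (1.25 log2), Cdc45 (0.90 log2, 1416575_at), Dut (0.72 log2, 1419270_a_at), Ccne2 (0.99 log2), Rrm1 (1.84 log2, 1448127_at) and Tyms (0.67 log2, 1442192_at). The 3 lower in WT (3.53%, against 3.57%) were Rfc3 (-1.48 log2, 1432538_a_at), Rfc5 (-1.35 log2) and Tyms (-0.86 log2, 1427811_at). Their 95% intervals came close to 0, such as 0.06 to 2.43 for Uhrf1 and -2.58 to -0.11 for Rfc5. These intervals and calls leave out the uncertainty of the unstimulated baselines, so the intervals are too narrow for a genotype difference. The difference of the responses includes that uncertainty, and without the block it passed on 0 of 85. Tyms thus passed in both directions, on different probe sets. The lowest adjusted p of a member was 0.582, and the count was 1 without the arrays numbered 2, where 5.1% of all probe sets passed. Without the arrays numbered 3 it was 11, of which 2 were higher and 9 lower in WT, with 11.4% of all probe sets passing.

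Other genes of the pathway gave few calls in the fit without the block. Of 71 probe sets of 33 further replication genes, 1 passed in WT and 1 in KO cells, both of Top2a, which untangles DNA. They were different probe sets, 1454694_a_at with 0.92 log2 in WT and 1442454_at with 1.44 log2 in KO cells. Of 61 probe sets of 23 further nucleotide synthesis genes, only Gart, a purine synthesis enzyme, passed, at 1.52 log2 in WT (1424436_at), where its 3 other probe sets gave -0.07 to 0.59 log2. Of 61 probe sets of 26 E2F, Rb, cyclin and CDK genes, Cdk6 (1.47 log2, 1455287_at) and Myc (1.34 log2) were higher and Tfdp2, a partner of E2F, was lower (-0.84 log2, 1445873_at) in WT. E2f6, a repressor of E2F genes, was lower in KO cells (-1.28 log2, 1437914_at). None of 20 probe sets of 11 mitosis genes passed, with medians of 0.54 log2 in WT and 0.12 log2 in KO cells. In that fit 1.04% of all probe sets passed in WT and 2.34% in KO cells.

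With the block these lists gave more. Of the E2F, Rb, cyclin and CDK genes, 12 of 61 probe sets were higher in WT (19.7%, against 1.43% of all) and 2 lower (3.28%, against 1.37%). Of the 12, 5 were of Ccnd2, a D-type cyclin (0.85 to 1.15 log2), and 3 of its partner Cdk6 (0.94 to 1.63 log2), so 8 came from a pair of genes. The others were of Myc, Mybl2, E2f8 and Ccna2. In KO cells 1 was higher (1.64%, against 2.25%) and 2 lower (3.28%, against 2.65%). Further nucleotide synthesis genes were higher on 6 of 61 in WT (9.84%), among them Dtymk, which makes dTDP from dTMP (1.12 log2), and Shmt2, a mitochondrial enzyme of folate metabolism (1.00 log2, 1455084_x_at), and on 0 in KO cells. Further replication genes were higher on 4 and lower on 1 of 71 in WT, and higher on 4 and lower on 3 in KO cells. The mitosis genes were higher on 2 of 20 in WT, Mki67 (1.04 log2) and Kif11 (0.63 log2, 1452315_at), and on 3 in KO cells, Cdc20 on 1416664_at (1.72 log2) and 1439394_x_at (1.45 log2) and Bub1 (1.67 log2, 1424046_at). The fits of the difference of the responses covered these probe sets too, but their results for these lists are not given here. The counts of WT and KO cells side by side are no test of a genotype difference.

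Markers of other cell types were set beside these counts. In the response of KO cells, 8 neutrophil markers had a median of 0.87 log2, with 1.48, 0.61 and -0.19 log2 in the 3 pairs, and 0 of 8 passed. Of the B-cell markers Blnk was higher (2.33 log2), and of the NK and CD8 T-cell markers Cd8a on an _x_at probe set was lower (-1.05 log2). No marker of another cell type passed in WT without the block. With it, Ms4a1, a B-cell marker, was higher on both probe sets (0.64 and 0.92 log2), and Klrd1 of NK cells (-1.43 log2) and Themis of immature thymocytes (-1.05 log2, 1439719_at) were lower in WT, and Cd8a, Cd8b1 and Prf1 were lower in KO cells on 1 probe set each. The 12 probe sets of immature thymocyte markers had a median of -0.58 log2 in WT, with -1.04, -0.24 and -0.19 log2 in the pairs, and of -0.09 log2 in KO cells. The 11 of NK and CD8 T-cell markers had -0.28 log2 in WT and -0.59 log2 in KO cells. Since the values are centred, the summed level of a marker list and a marker at 0 cannot be given. Their part in the members' values was not tested.

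In thymocytes the question is whether loss of N-ras or of H-ras changed these genes, and each genotype has 1 array, so there is no replicate check and no test. None of the 72 member probe sets differed by 1.5-fold between WT and N-ras KO, where 2.64% of all probe sets did, between WT and H-ras KO (2.97%), or between H-ras KO and N-ras KO (2.42%). The differences that were seen were small. The N-ras KO array alone was the lowest on 45 of 72 (62.5%), against 23.4% of all probe sets.

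WT minus N-ras KO had a median of 0.09 log2 and was above 0 on 53 of 72 probe sets (73.6%, against 35.7% of all, where many values tie at 0). It was largest for Mcm3, another subunit of the helicase, at 0.46 log2 on 1426653_at, with WT at 0.32, N-ras KO at -0.14 and H-ras KO at 0.00. It was most negative for Tyms on 1438690_at, at -0.37 log2, from a WT array at -0.37 and both KO arrays at 0. The helicase genes were higher in WT on 16 of 19 probe sets (median 0.15 log2) and the licensing genes on 9 of 10 (0.12 log2). The polymerases and primase were split, with 4 higher and 5 lower (median -0.01 log2). Dut, at 0.39 log2 on 1419269_at, and Uhrf1, at 0.28 and 0.36 log2, lay near the top, while Dut on 1419270_a_at was at 0.17 log2.

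WT minus H-ras KO shares the WT array. It had a median of 0.00 log2, with 30 of 72 above and 34 below 0, and ran from -0.41 log2 (Pola1) to 0.39 log2 (Uhrf1, 1415811_at). Nucleotide synthesis genes were lower in WT on 7 of 11 probe sets (-0.09 log2), and polymerases and primase on 7 of 9 (-0.10 log2). On the 11 measured mitosis genes too the N-ras KO array was alone the lowest, on 16 of 17 probe sets (median of WT minus N-ras KO 0.25 log2). Neutrophil markers differed far more, since on 7 of 8 the WT array exceeded each KO array by 1.5-fold or more (medians 1.43 log2 over N-ras KO and 1.81 log2 over H-ras KO), and the 8 T-cell marker probe sets had medians of -0.06 and 0.04 log2 with 0 past 1.5-fold. The 8 B-cell marker probe sets went opposite ways, with a median of -0.34 log2 against N-ras KO (1 lower by 1.5-fold or more) and 0.50 log2 against H-ras KO (3 higher). With 1 mouse a genotype, a difference between mice and a difference between genotypes cannot be told apart.

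**Figure D5:**
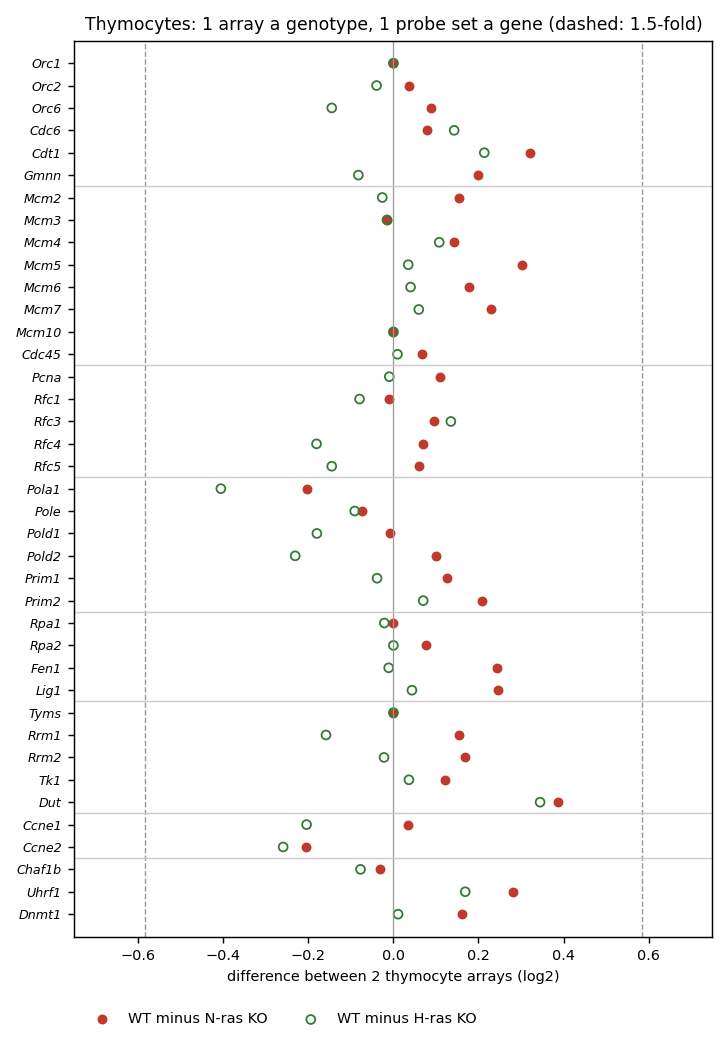
Difference (log2, x axis) between the WT thymocyte array and the N-ras KO array (filled) or the H-ras KO array (open) for 39 genes, with 1 probe set a gene. Horizontal lines separate the roles. No point reaches the dashed lines at 1.5-fold, and filled points lie above 0 for 28 of 39 genes, open points for 14.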

How the data were processed

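RNA of 12 CD4+ T-cell samples and 3 thymocyte samples was hybridised to Affymetrix mouse arrays, 15 in all. Per the labels and methods, the authors summarised probes by RMA with quantile normalization in GeneSpring and transformed each probe set to the median of control samples, and the deposited values are log2 expression after that step. The labels give no RMA version, while the methods name the variant of RMA and the release of GeneSpring. The methods name 1 array type, while the CD4+ T-cell values cover 45101 probe sets and the thymocyte values 22690. The files hold no counts, probe intensities or background, so the number of arrays limits the precision.

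Probe sets were assigned to members by the platform annotation, in which 34958 CD4+ probe sets name 1 gene and 932 several, and a probe set naming several genes was not used. limma 3.58.1 in R 4.3.3 fitted the 4 CD4+ groups together on all 45101 probe sets, with eBayes. A probe set passed at an unadjusted p under 0.05 and at least 1.5-fold, the thresholds of the study, and Benjamini-Hochberg adjusted p-values over all probe sets are given beside them. All tests were two-sided. The test of the WT response was checked on simulated data with independent noise on each array. Those data lacked the shifts shared by arrays of 1 number, so the check does not cover them. The replicate numbers of the labels paired samples within a genotype, since every pair of stimulated and unstimulated arrays correlated above 0.1 in its deviations over all probe sets (0.361 to 0.738), so the fit with the replicate block within genotype is given beside the main one. Across genotypes these correlations were negative (-0.621 to -0.117). Thymocytes, with 1 array a genotype, were compared by difference.

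Every array value was printed for members that passed in either response or in their difference, and for the member with the smallest p in each role without one. The members, the lists of other genes and the tests were chosen with earlier results of these data known. Promoter windows came from RefSeq. Alternatives were the methods' t-test, quantile normalization, median centring, array weights, a fit on the groups compared, the replicate block, probe set choice, adjusted p-values and leaving out arrays.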

Additional observations from a re-analysis of the deposited data

Results flagged for a closer look

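A pair of member probe sets moved in opposite directions in the genotypes, lower in 3 of 3 WT pairs and higher in 3 of 3 N-ras KO pairs. They were the 2 of 85 (2.35%) with opposite directions in all pairs, whichever way round, while 2.97% of all probe sets had that.

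Rfc4, the clamp loader subunit, did so on 1438161_s_at, with pair differences of -0.05, -0.73 and -0.16 log2 in WT and 0.10, 0.87 and 0.16 log2 in N-ras KO cells. The responses differed by -0.69 log2 and did not pass the test (adjusted p = 1.00 in limma, and not past the thresholds with the replicate block either). Pair 2 carried most of it in both genotypes, and the other probe set of Rfc4, 1424321_at, gave a difference of 0.03 log2.

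Cdt1, which brings the MCM helicase to origins, did so on 1455791_at, with -0.28, -0.06 and -0.29 log2 in WT and 0.30, 0.03 and 0.18 log2 in N-ras KO cells. The responses differed by -0.38 log2 and did not pass the thresholds (adjusted p = 1.00 in limma, and not past them with the replicate block). On 1424143_a_at and 1424144_at the differences were 0.19 and 0.06 log2.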

How the results depend on the processing

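No probe set that passed turned its direction under an alternative. With 3 arrays a group, the counts were small and most of them moved. The WT response had 3 member probe sets past the thresholds. It had 1 under the methods' t-test, with quantile normalization, with 1 probe set per gene and without s and x probe sets, 0 with adjusted p-values, and 1 to 7 when arrays were left out. It was 1 without number 1, 6 without stimulated WT 2, and 7 without unstimulated WT 3 or without number 3. The N-ras KO response had 1. It had 0 under the t-test, on the 2 groups alone, with quantile normalization, with arrays centred on the median, with 1 probe set per gene and with adjusted p-values, and 0 to 3 when arrays were left out. The difference of the responses had 0, and 0 to 3 when arrays were left out. Stimulated WT minus stimulated N-ras KO had 9. It had 3 under the t-test, 5 on the 2 groups alone, 2 with quantile normalization (1 higher, 1 lower) and 4 with 1 probe set per gene. It had 0 with adjusted p-values, and 1 to 11 when arrays were left out. The share of all probe sets that passed changed with the setting too. In WT cells it was 1.04% with all arrays and 2.95% without number 3. That share is not given beside each count here. The counts of this paragraph therefore cannot tell a change in the members from one across the arrays.

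With the replicate block within genotype the counts were 7 in WT, 5 in N-ras KO cells and 3 for the difference. Chosen after seeing the data, that block without number 1 gave 4 in N-ras KO cells and 3 for the difference (5.99% and 4.61% of all), without number 2 gave 11, 6 and 8 (2.82%, 6.42% and 4.04% of all probe sets passed), and without number 3 gave 8, 4 and 6 (4.29%, 5.29% and 5.16% of all). Without the arrays N-ras KO 3 and WT 1 it gave 6, 4 and 3 (3.94%, 5.96% and 5.64% of all). Without them and without the block the counts were 1 in WT, 2 in N-ras KO cells and 5 for the stimulated cells. A block by number across genotypes left the stimulated comparison at 9. For these counts of the stimulated cells the share of all probe sets is not given here. The cause of these shifts was not tested.

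Uhrf1 stayed past the thresholds in WT under 28 of 29 alternatives and missed them without number 1 (1.31 log2). Mcm2 missed them under 10 of 27, Rrm2 under 11 of 27, and Tyms in N-ras KO cells under 20 of 28. Some of these alternatives could hardly change a call, so the tallies overstate how far the calls were tried. A choice of probe sets that kept the probe set reused its main fit. Leaving out only an array of the other genotype left the size of the response as it was and changed only the estimate of the spread. The member median of the N-ras KO response was -0.061 log2 with 1 probe set per gene, and 0.01 to 0.11 log2 when arrays were left out, while that of WT was 0.01 to 0.15 log2. In thymocytes the count at 1.5-fold was 0 under 5 alternatives, of which the higher threshold and the choices of fewer probe sets could not have raised it.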

Other observations

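Genes of the same pathway that are no members had medians near 0 in thymocytes, while single probe sets spread about as widely as the members or more. Over 40 probe sets of further replication genes WT minus N-ras KO had a median of 0.01 log2 and the N-ras KO array was alone the lowest on 19. Over 46 of further nucleotide synthesis genes the median was 0.03 log2 and that array was alone the lowest on 25. Both shares lie above the 23.4% of all probe sets and below the 62.5% of the members. None of the probe sets on these 2 lists was past 1.5-fold against N-ras KO. Against H-ras KO 1 was, Samhd1, which breaks down deoxyribonucleotides (0.68 log2). The E2F, Rb, cyclin and CDK genes, 41 probe sets, had medians of 0.06 log2 against either KO array. The WT array was 1.5-fold or more above the H-ras KO array on 7 and below it on 0, while 2.97% of all probe sets differed by as much in either direction. Most of the 7 were of Ccnd2, and the others were of Cdk6 and Cdkn1a. The WT array was above the N-ras KO array by as much on 0 and below it on 1, Ccnd2 on 1416123_at (-0.60 log2). Of all probe sets, 2.64% differed by as much in either direction.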
